A study of Mus musculus with 2 samples.

Results

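The replication-dependent histone genes encode the core histones H2A, H2B, H3 and H4 and the linker histone H1 that package newly copied DNA. The 67 genes described here are all protein-coding genes of the GENCODE M21 annotation of the mouse genome (build GRCm38, mm10) whose symbols begin with Hist1h, Hist2h, Hist3h or Hist4h, of 21938 protein-coding genes in all. They comprise 6 H1, 18 H2A, 18 H2B, 12 H3 and 13 H4 genes. The Hist1 cluster on chromosome 13 holds 54 of them, Hist2 on chromosome 3 holds 10, Hist3 on chromosome 11 holds 2, and Hist4 on chromosome 6 is the single gene Hist4h4. Another 3 genes with such symbols are annotated as other gene types and were left out.

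Most genes of this class lack introns, are transcribed mainly in S phase, and give mRNAs that end in a stem-loop in place of a poly(A) tail. Their H2A and H2B genes are often arranged head to head, so that the DNA between a pair of starts serves as promoter for both. A few are known as testis genes (Hist1h1t, Hist1h2aa and Hist1h2ba), and at this age most cells of the cerebral cortex no longer divide.

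Chromatin accessibility was measured by DNase-seq, in which open DNA is found by the cuts that DNase I makes in it. The material was the left cerebral cortex of 2 female B6CASTF1/J mice aged 36 days, with 1 library per mouse, here called replicate 1 and replicate 2. Both animals were of the same kind, with no treatment or second genotype among them, so the measurements describe one condition and the only spread is that between the 2 mice. For each library the authors deposited a shorter and a longer peak list, footprints (short protected stretches inside open DNA) and runs of positions with a false discovery rate (FDR) for their cut rate.

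In the shorter list, 69208 peaks were called for the first mouse and 69128 for the second, and their median heights were 1.17 and 0.909 in the authors' own signal unit. Heights are therefore given for each mouse beside their percentile within that mouse's list. Read depth is unknown from these files. Promoter peaks called in both mice were present for 5 of 5 excitatory neuron markers, 4 of 5 astrocyte, 2 of 5 interneuron, 2 of 5 oligodendrocyte, 1 of 5 microglia, 1 of 5 endothelial and 1 of 5 germ cell markers. Among 8 genes of dividing cells, 7 had one. Over all protein-coding genes the share was 61.1 percent, so lists of this size say little about cell content. In bulk tissue, a lower height from fewer cells with an open site and one from less opening per cell cannot be told apart.

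The sequences below carry the main contrasts among the promoters. The first 3 are the 100 bases before the GENCODE start of the H4 genes with the highest peaks, read 5′ to 3′ on the gene's strand, with the H4 promoter element GGTCCG in capitals. They lie on the minus strand at chr13:23698455-23698554, chr13:22041363-22041462 and chr3:96263312-96263411 (GRCm38).
Hist1h4c: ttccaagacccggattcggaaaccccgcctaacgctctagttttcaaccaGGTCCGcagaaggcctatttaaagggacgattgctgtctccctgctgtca
Hist1h4i: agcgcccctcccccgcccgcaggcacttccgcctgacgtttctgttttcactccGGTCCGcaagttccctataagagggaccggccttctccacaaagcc
Hist2h4: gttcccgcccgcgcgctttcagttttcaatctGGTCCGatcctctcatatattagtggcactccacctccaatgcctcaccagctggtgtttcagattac

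The next 3 are the DNA between head-to-head H2B and H2A starts, on the plus strand, trimmed so that neither the GENCODE nor the RefSeq transcript is entered. Capitals mark CCAAT and the octamer ATTTGCAT on either strand. The first pair was open (chr13:23574208-23574380), the second is the testis pair with no peak (chr13:23934157-23934436), and the third is a pair whose sequence is repeated elsewhere (chr13:21810200-21810366).
Hist1h2bf-Hist1h2ad: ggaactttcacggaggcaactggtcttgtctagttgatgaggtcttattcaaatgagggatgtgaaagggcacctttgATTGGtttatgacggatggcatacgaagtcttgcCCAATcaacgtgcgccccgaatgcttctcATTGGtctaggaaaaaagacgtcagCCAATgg
Hist1h2ba-Hist1h2aa: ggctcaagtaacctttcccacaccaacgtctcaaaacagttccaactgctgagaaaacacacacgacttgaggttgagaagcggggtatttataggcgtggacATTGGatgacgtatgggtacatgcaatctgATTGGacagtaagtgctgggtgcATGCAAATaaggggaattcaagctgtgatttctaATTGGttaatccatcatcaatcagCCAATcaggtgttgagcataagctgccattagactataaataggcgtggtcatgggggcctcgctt
Hist1h2bq-Hist1h2ao: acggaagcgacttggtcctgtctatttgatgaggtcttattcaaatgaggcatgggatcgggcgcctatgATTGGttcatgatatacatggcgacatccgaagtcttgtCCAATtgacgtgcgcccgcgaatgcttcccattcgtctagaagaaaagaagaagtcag

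The last promoter is that of the H1 gene that ranks first by the 1 kb window used below, 130 bases on the plus strand (chr13:23738678-23738807), with the H1 box AAACACA in capitals.
Hist1h1c: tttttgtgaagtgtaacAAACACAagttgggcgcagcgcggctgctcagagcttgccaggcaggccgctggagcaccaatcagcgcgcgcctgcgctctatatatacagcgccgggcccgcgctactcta

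Most histone gene starts were open in the cortex of both mice. A peak called in both mice lay within 1 kb of a start for 55 of the 67 genes (82.1%), beside a background of 61.1 percent of all protein-coding genes. In the peaks of replicate 1 alone it was 56 genes (63.4 percent of all protein-coding genes), and in those of replicate 2 alone 58 (62.3 percent). In both mice it was 13 of 13 for H4, 15 of 18 for H2A, 15 of 18 for H2B, 8 of 12 for H3 and 4 of 6 for H1. Because the genes are close together, a peak within 1 kb can belong to a neighbour. Within 200 bp of a start, 54 of 67 genes had a peak in both mice, beside 58.4 percent of all protein-coding genes. The gene lost in the narrower window was Hist1h3f, an H3 gene whose nearest peaks lay further than 200 bp away. Of the 67 histone genes 63 have 1 annotated start, while a gene with more starts was searched at each of them. With the 5′ end of each gene alone, 55 histone genes were open within 1 kb. Of all protein-coding genes it was 12432, beside 13401 with all starts. Heights below are those of the highest peak within 200 bp of any of a gene's own starts, except where stated.

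The median height of the 54 genes was 2.75 in replicate 1 and 2.57 in replicate 2, the 78.5 and 87.3 percentiles. Over the 12707 protein-coding genes with such a peak of each mouse in the window, the medians were 4.07 and 2.96, the 87.2 and 89.6 percentiles. In histone genes with windows at least 90% single-copy, of which 9 of 11 were open, the 1 kb percentiles had medians of 92.9 and 93.9, above the 87.3 and 89.5 of all protein-coding genes in that window. Those 9 genes are 4 H1, 4 H4 and 1 H2B. By family, H4 medians stood at the 93.8 and 96.5 percentiles, H3 at 86.2 and 89.4, H1 at 82.4 and 85.5, H2A at 75 and 86.0, and H2B at 71.5 and 82.7. Of 54 histone genes, 13 (24.1%) were over the 90 percentile in both mice, beside 39.4% of the 12707 protein-coding genes. Of the 13 histone genes over the 90 percentile in both mice, 9 encode H4, 2 encode H3, 1 encodes H2A and 1 encodes H2B. These are counts and medians of genes in 2 libraries, with no test. Genes with several starts take their highest peak over more windows, and the part of this in the comparisons was not tested.

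**Figure D1:**
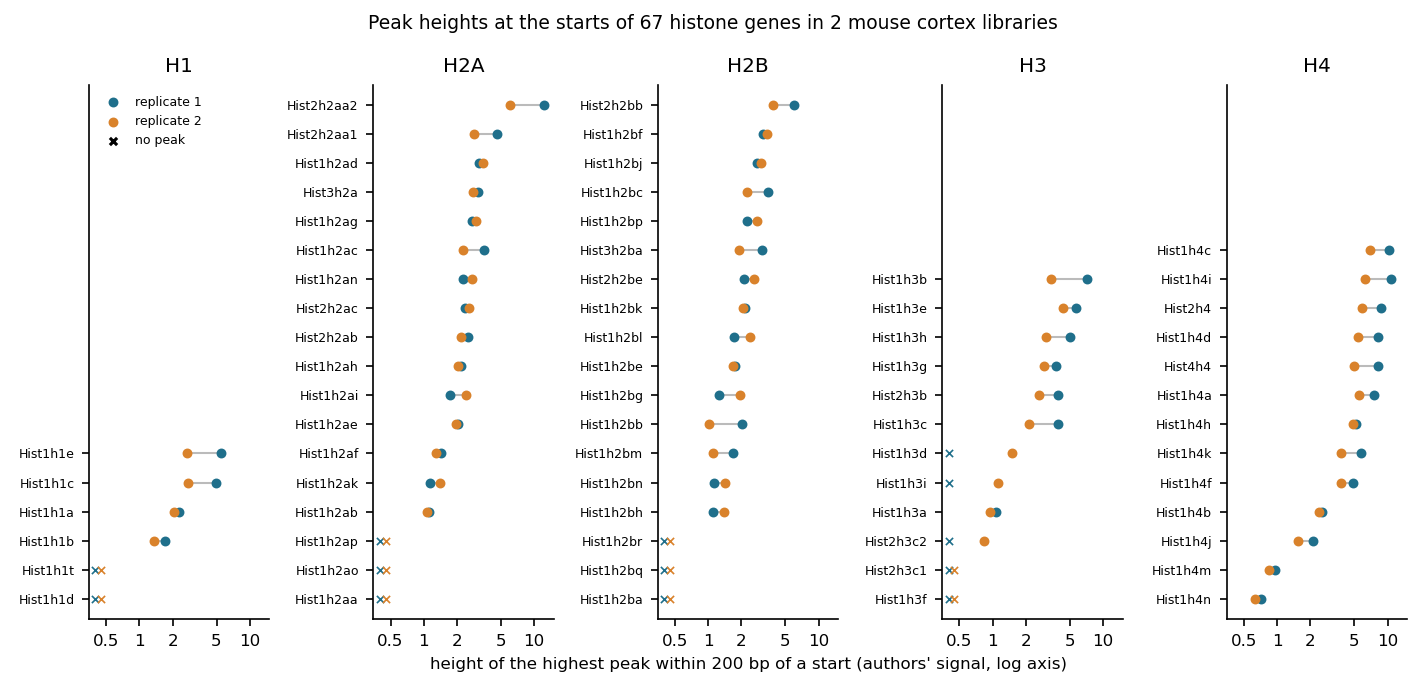
Height of the highest peak within 200 bp of each start (log axis, authors' signal) for the 67 genes by family, with blue points for replicate 1, orange points for replicate 2 and crosses where no peak was called. The H4 genes Hist1h4c and Hist1h4i reached 10.4 and 10.7 in replicate 1, while most H2A and H2B genes lay between 1 and 5 in both mice.

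Linker histone H1 genes were open at 4 of 6 starts. Hist1h1c, which encodes the H1.2 subtype, had heights of 4.91 in replicate 1 and 2.77 in replicate 2, and a second peak within 1 kb reached 3.94 in replicate 2. Hist1h1e, which encodes H1.4, had 5.50 and 2.70. Hist1h1a, which encodes H1.1, had 2.28 and 2.08, and Hist1h1b, which encodes H1.5, had 1.70 and 1.37. Each was higher in replicate 1 on the authors' scale, on which the median region shared by the mice is 0.744 times as high in replicate 2.

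The testis H1 gene Hist1h1t had no peak in either list of either mouse, and 0 bases within 1 kb of its start fell under an FDR of 0.05 although 100% of its 32-base words occur once in the genome. Hist1h1d, which encodes H1.3, also had no peak at its GENCODE start at position 23553262. The RefSeq annotation places its start 1770 bp further along, at 23555032, and there a peak was called in both mice with heights of 3.09 and 1.92. Of 62 histone genes matched to RefSeq promoters by symbol or synonym, 52 had a RefSeq start within 50 bp of a GENCODE start, and 51 were open within 1 kb of the RefSeq start.

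The H2A family was led by a Hist2 gene. Hist2h2aa2 had heights of 12.3 and 6.05, the 99.8 and 98.6 percentiles, the highest of all 67 genes in replicate 1. Its near-identical partner Hist2h2aa1 had 4.58 and 2.87. Only 18.4% and 21.2% of the positions in the 250 bases before their starts had a single-copy 32-base word, so reads could be assigned to the wrong partner and neither value can be taken as that of 1 gene. The third was Hist1h2ad, with 3.13 and 3.42 from the promoter it shares with Hist1h2bf.

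Other Hist2 and Hist3 H2A genes lay lower. Hist2h2ab, whose start is 155 bases from that of the divergent non-histone gene Bola1, had 2.52 and 2.16. Hist2h2ac, which shares its promoter with Hist2h2be, had 2.38 and 2.57. Hist3h2a had 3.08 and 2.77. The remaining open H2A genes ranged down to Hist1h2ab at 1.12 and 1.07.

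The H2B family was led by Hist2h2bb at 5.96 and 3.84, the 94.3 and 93.6 percentiles. Hist1h2bf followed with 3.13 and 3.42, and Hist1h2bc with 3.47 and 2.26. Hist2h2be, an H2B gene whose transcripts are also known with a poly(A) tail, had 2.10 and 2.57, and Hist3h2ba had 3.06 and 1.89. The lowest open H2B gene in replicate 1 was Hist1h2bh at 1.09, with 1.40 in replicate 2.

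H3 genes were open at 8 of 12 starts. Hist1h3b had heights of 7.13 and 3.37, Hist1h3e 5.66 and 4.35, and Hist2h3b 3.90 and 2.61. Hist1h3a ranked first in the family by the 1 kb window (7.55 and 5.57), but that peak is the one at the start of Hist1h4a, and within 200 bp of its own start Hist1h3a had 1.08 and 0.954. Hist1h3d had a peak of 1.49 in replicate 2 only, with peaks in both mice in the longer lists. Hist1h3i had peaks of 0.645 and 1.11 within 1 kb that did not overlap between the mice, and a region called in both mice in the longer lists.

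Near-identical copies also limit the H3 family. Hist2h3c1 had no peak in any list. Hist2h3c2 had one of 0.830 in replicate 2 of the shorter lists, and a region called in both mice in the longer lists. Only 20.7% and 20.1% of their windows were single-copy. The other H3 genes were open in both mice.

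H4 genes had the highest median height of the 5 families in both mice, 5.81 in replicate 1 and 4.84 in replicate 2. Hist1h4c had heights of 10.4 and 6.87, the 99.4 percentile in each mouse. Hist1h4i had 10.7 and 6.19, Hist2h4 had 8.70 and 5.88, Hist1h4d 8.15 and 5.37, and Hist4h4, the only gene of its cluster, 8.20 and 4.99. The lowest were Hist1h4m (0.949 and 0.853) and Hist1h4n (0.717 and 0.634). Those 2 genes belong to a duplicated block, and none of the 32-base words in the 250 bases before their starts is single-copy.

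H4 also had the highest share of genes under the threshold at the start. At the start itself, 100% of H4 genes fell under an FDR of 0.05 in both mice, and 100 bp downstream it was still 100%. Among H3 genes the share was 83.3% at the start in both mice and 8.33% and 25.0% at 200 bp downstream. Among H1 genes, whose records are longer than those of most core histones (median 1236 bp, beside 539 bp over all 67), 66.7% were under the threshold from 100 bp before to 500 bp after the start in both mice. The H1 genes not under it were Hist1h1t and Hist1h1d, the latter read at its GENCODE start and not at its RefSeq start. H2A genes had 66.7% and 77.8% at 300 bp upstream and 33.3% and 36.7% at 300 bp downstream. Positions under the threshold thus lay more often on the upstream side, where paired H2A genes have the H2B start. Around histone starts, 28.8% and 32.3% of positions not next to a single-copy word were under the threshold. Next to such a word it was 42.0% and 48.4%. The part of repeated sequence in these family profiles was not tested.

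**Figure D2:**
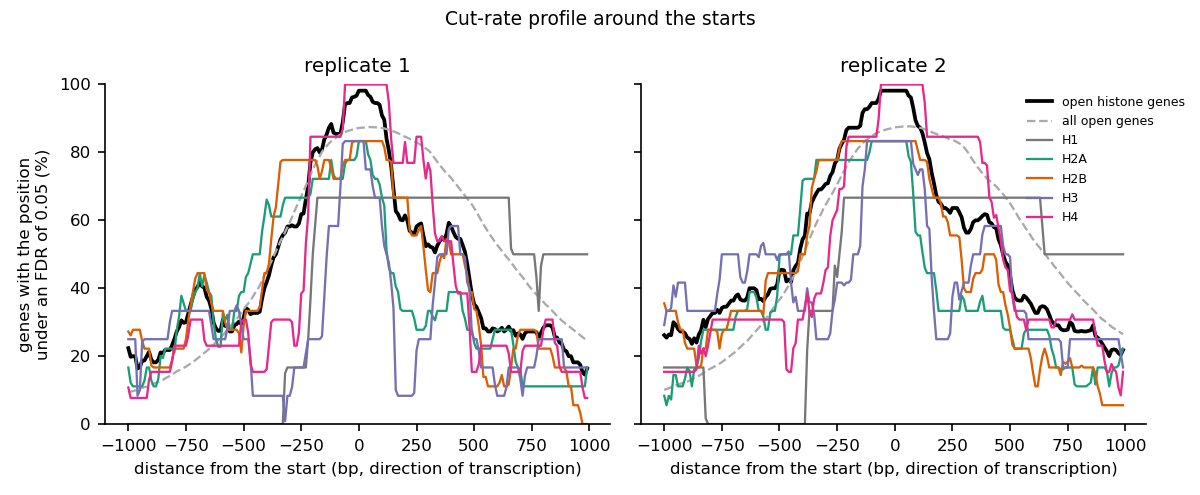
Percent of genes with a position under an FDR of 0.05, against distance from the start in the direction of transcription, in 10 bp bins for each mouse, for the 55 histone genes with a promoter peak in both mice (black), all genes of each family (colours) and all protein-coding genes with a promoter peak in both mice (dashed). At 200 bp downstream the open histone genes stood at 61.5% and 64.9%, beside 84.6% and 84.9% of the open protein-coding genes. Many histone windows hold repeated sequence, and its part in this difference was not tested.

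The median number of bases under the threshold within 1 kb of a start was 780 in replicate 1 and 848 in replicate 2 over all 67 genes, beside 663 and 665 over all protein-coding genes. Over the 55 with a promoter peak in both mice it was 886 and 934, beside 1043 and 1083 over all open protein-coding genes. Over the 11 histone genes whose windows are at least 90% single-copy it was 1061 and 1205, above the open protein-coding genes. Those 11 are 6 H1, 4 H4 and 1 H2B genes, so copy number and family cannot be told apart there. The median histone gene body had 42.2% and 46.8% of its bases under the threshold, beside 2.21% and 2.33% over all protein-coding genes, whose median length is 17425 bp. At least 1 footprint lay within 1 kb of a start in each mouse for 58 of 67 genes, beside 64.4 percent of all protein-coding genes.

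Pairs of H2A and H2B genes shared their open promoters. Of the 67 genes, 27 had a head-to-head partner within 1 kb, beside 6.78 percent of all protein-coding genes. There were 12 H2A-H2B pairs, with 175 to 305 bases between the starts (median 258.5). A peak lay between the starts in both mice in 9 of the 12. Such a shared peak is a single measurement for both genes: the 30 open H2A and H2B genes drew on 23 different peaks in replicate 1 and 21 in replicate 2.

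The shared promoter of Hist1h2ac and Hist1h2bc was the highest in replicate 1 (3.47, with 2.26 in replicate 2), and that of Hist1h2bf and Hist1h2ad the highest in replicate 2 (3.42, with 3.13 in replicate 1). The lowest in replicate 1 was that of Hist1h2ak and Hist1h2bn (1.14, with 1.41 in replicate 2). In replicate 2 the lowest was the peak between the starts of Hist1h2ae and Hist1h2bg (1.23, with 1.24 in replicate 1). A higher peak lies next to it within Hist1h2ae (2.05 and 1.95). The 3 pairs without a peak were the testis pair Hist1h2ba and Hist1h2aa and the pairs Hist1h2bq with Hist1h2ao and Hist1h2ap with Hist1h2br. The testis pair is 89.5% single-copy, and 0 bases were under the threshold within 1 kb of either start in either mouse. Its printed sequence holds 4 CCAAT motifs and 1 octamer, while the open Hist1h2bf-Hist1h2ad sequence holds 4 CCAAT motifs and no octamer.

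The other pairs without a peak lie in an inverted duplication. The printed 167 bases between Hist1h2bq and Hist1h2ao, reverse complemented, occur without a mismatch between Hist1h2ap and Hist1h2br. No 32-base word within 1 kb of the starts of these 4 genes is single-copy, and 0 bases there were under the threshold in either mouse. How reads with several places were treated was not given, so the lack of a peak cannot be told apart from a lack of uniquely placed reads. Hist1h4m and Hist1h4n in the same duplication, at 4.15% and 4.20% single-copy over 1 kb, did have peaks, with 198 bases under the threshold in replicate 1 for each. Over all windows around histone starts, 42.0% and 48.4% of positions next to a single-copy word were under the threshold in the 2 mice, beside 28.8% and 32.3% of the other positions.

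**Figure D3:**
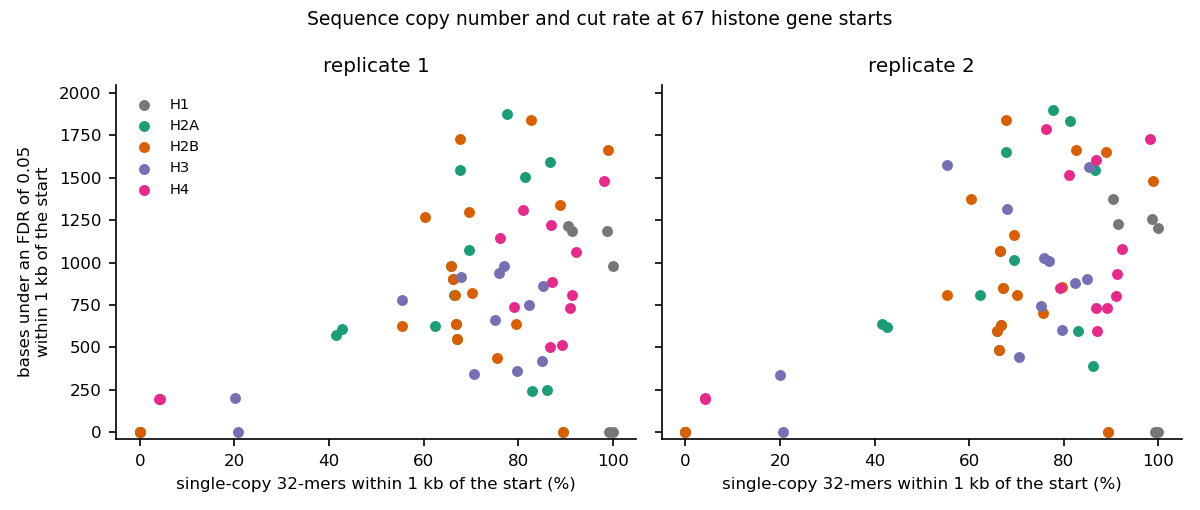
Bases under an FDR of 0.05 within 1 kb of a start against the percent of single-copy 32-base words in the same window, 1 point per gene, coloured by family, 1 panel per mouse. The genes at 0% single-copy sequence are at 0 bases in both mice, and so are the testis genes, at 89.5% and 100%, Hist1h1d and Hist2h3c1.

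Histone genes less than 100 kb apart form 7 stretches, the longest with 29 genes over 233 kb from Hist1h4h to Hist1h1a. It held 33 regions called in both mice, the 18-gene stretch from Hist1h2bl to Hist1h2br held 15, the Hist2 cluster held 9, and the testis pair held 0. In all, 62 regions called in both mice lay within 1 kb of a histone start and 20 of these served more than 1 histone gene. Within the stretches, 7 regions lay further than 1 kb from every GENCODE start of a histone gene. One of these is the peak at the RefSeq start of Hist1h1d, and another lies within 1 kb of that start.

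**Figure D4:**
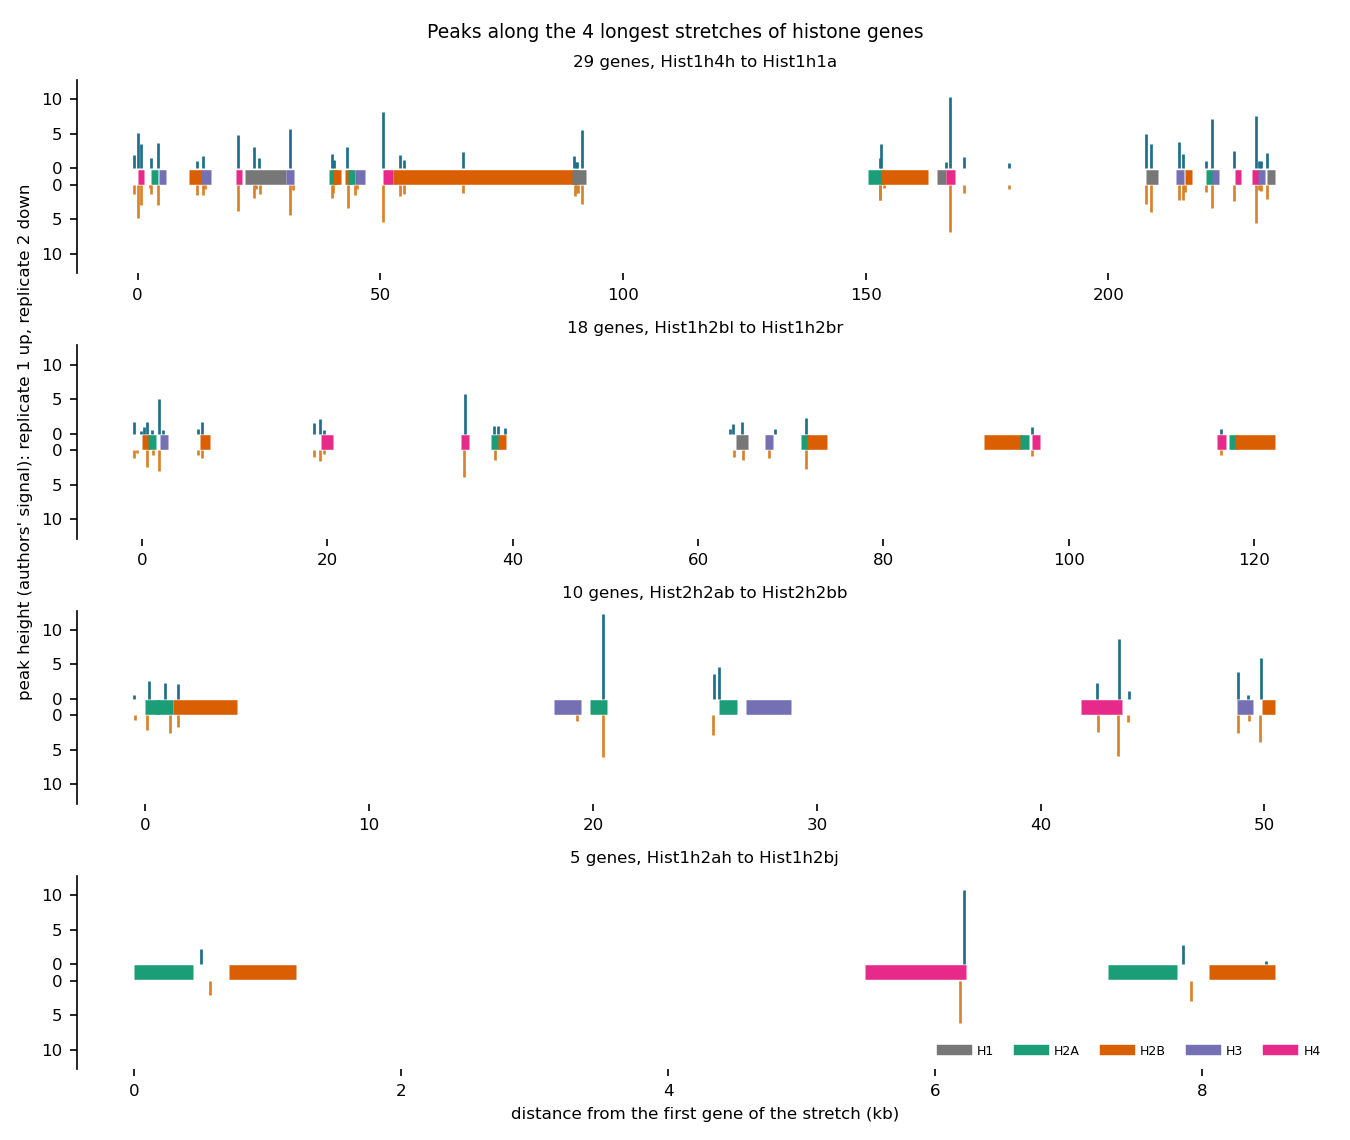
Peaks of the shorter lists along the 4 longest stretches of histone genes, against distance from the first gene (kb), with heights in the authors' signal for replicate 1 upwards and replicate 2 downwards. Coloured bars on the middle line are genes by family, slightly lengthened so that short genes show. The highest lines stand at H4 starts and at Hist2h2aa2 (12.3 and 6.05).

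Between the stretches of the Hist1 cluster the DNA was open at other genes. Counting the whole span from the first to the last Hist1 gene, 68 regions called in both mice lay more than 1 kb from any histone start, of which 19 were at promoters of other genes, 18 within genes and 31 intergenic. The RefSeq annotation places tRNA genes in 45 of the 68, and 48 of its 77 tRNA genes in the span lay in a region called in both mice. By mean percentile over the mice, the 5 highest regions were at Mir1983 (chr13:21896941-21897180, 8.99 and 3.94), Abt1 (chr13:23423781-23424020, 6.80 and 4.76), Zfp322a (chr13:23369121-23369400, 6.19 and 5.10) and 2 places with no GENCODE gene at chr13:23526441-23526660 (8.88 and 3.70) and chr13:23432961-23433160 (7.64 and 4.0). The first and the last 2 hold a RefSeq tRNA gene. A CTCF-like pattern, searched on both strands, was found in 4 of the 68 regions (5.88%) and in 12.6% of the 2134 regions called in both mice on chromosome 13.

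The promoter sequences share motifs that the choice of genes, made by symbol, did not use. The octamer, the H4 element and the H1 box were searched because they are known elements of histone promoters. In the 250 bases before the start, searched on both strands, CCAAT was found in 54 of 67 histone promoters (80.6%) and 36.0% of all protein-coding promoters, and in 18 of 18 H2A and 18 of 18 H2B promoters. TATAAA was in 34 (50.7%), beside 11.5% of all. The octamer ATTTGCAT, a site bound by Oct-1, was in 15 (22.4%), beside 1.45% of all, with 7 in H2A, 8 in H2B and none in the other families. Paired genes share some of these sites.

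Other motifs followed the families. GGTCCG was in 12 of 13 H4 promoters and 7.69% of all protein-coding promoters, and AAACACA in 4 of 6 H1 promoters and 5.66% of all. Hist1h1d, which lacked AAACACA, was searched before its GENCODE start only. The GC box GGGCGG was in 10 of 13 H4 promoters, in 19 histone promoters in all (28.4%) and in 39.0% of all protein-coding promoters. Of the E2F-type motifs, TTTCGCGC was in 8 histone promoters (11.9%), all H2A or H2B, and in 0.278% of all, while TTTGGCGC was in 0. Median GC content was 44.4%, beside 54% of all protein-coding promoters, and the median observed-to-expected CpG ratio was 0.715, beside 0.486.

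The H4 element often touched a footprint, by at least 1 shared base. Of the 12 GGTCCG sites in H4 promoters, which lay a median of 49 bases before the start, 11 touched a footprint in replicate 1 (91.7%), 9 in replicate 2 (75%) and 9 in both. Among the 9 are Hist1h4m and Hist1h4n, copies in the same duplication with no single-copy word in the 250 bases before their starts. Reads there could be assigned to the wrong copy, so these sites may not be separate measurements. Any 6-base window in the 250 bases before the histone starts touched a footprint in 20.3% and 20.4% of cases. Those windows come from all 67 promoters, open or not, and no share was taken over H4 promoters alone. Other motifs in H4 promoters also touched footprints more often than that. TATAAA did so at 3 of 6 sites in each mouse, and CCAAT at 2 and 3 of 5. In the Hist1h4c sequence above, the footprint was 32 bases long in each mouse, from 54 to 23 bases before the start in replicate 1 and from 53 to 22 in replicate 2. It therefore covered the capital letters and the bases that follow them. In Hist1h4i it reached from 51 to 20 bases before the start in replicate 1 and from 53 to 19 in replicate 2.

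In Hist2h4 the footprint, 12 and 8 bases long in the 2 mice, overlapped the element by its last base only, starting 63 bases before the start in both. The one H4 site with no footprint in either mouse was in Hist1h4j, and those of Hist1h4b and Hist1h4h had one in replicate 1 only. The 2 GGTCCG sites outside H4, before Hist1h2bh and Hist1h3i, had none.

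The GC box GGGCGG touched a footprint at 9 and 10 of its 14 sites in H4 promoters (64.3% and 71.4%), and at 13 and 14 of 36 sites over all histone promoters. TTTCGCGC touched a footprint at 4 of 5 sites in both mice, and the site without one was that between Hist1h2an and Hist1h2bp. The octamer did at 0 of 10 sites in replicate 1 and 2 of 10 in replicate 2. Windows of 8 bases, the length of these motifs, touched one in 22% and 22.3% of cases. CCAAT did at 23 and 31 of 107 sites and TATAAA at 11 and 10 of 33, beside 19.4% and 20.3% of windows of their length in replicate 1 and 19.4% and 20.4% in replicate 2. The H1 box of Hist1h1b touched a footprint in both mice, and those of Hist1h1c, Hist1h1e and Hist1h1t did not in either.

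Nearly all of these genes carry the histone stem-loop after the coding end. A stem-loop of 16 bases, a stem of 6 paired bases around a loop of 4 on the sense strand, began within 150 bases of the coding end in 60 of the 67 genes and in 63 of all 21938 protein-coding genes, the other 3 being H2afx, H2bfm and Ttc14. It lay 25 to 62 bases after the coding end (median 35). The 6 forms, with the loop in capitals, were found in 38, 9, 8, 2, 2 and 1 genes in the order shown.
form a: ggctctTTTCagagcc
form b: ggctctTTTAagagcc
form c: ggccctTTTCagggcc
form d: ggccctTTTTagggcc
form e: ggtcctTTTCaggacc
form f: ggctctTTTTagagcc
Form d was that of Hist1h4i and Hist2h4, form e that of Hist1h4b and Hist1h4j, and form f that of Hist2h2ac. The open and the closed genes both carried it: the testis genes Hist1h1t, Hist1h2aa and Hist1h2ba are among the 60.

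Relative to the scale between the mice, H2A and H2B peaks were higher in replicate 2. After subtraction of the median log2 ratio of all shared regions, the height in replicate 2 minus that in replicate 1 had a median of 0.36 for H2A and 0.55 for H2B, with 21 of 27 genes above 0. Head-to-head partners often share a peak and then have the same ratio, so the 27 genes are not 27 separate measurements and the 2 medians are not independent. Left out of these values are 3 genes (Hist2h2aa1, Hist1h2bg and Hist1h2bb) whose highest peaks within 200 bp did not overlap between the mice. For H3 it was -0.15 and for H4 -0.03, with 8 of 20 above 0, and for H1 it was -0.14. Over all protein-coding genes the median was -0.04, with 5511 of 12260 above 0. The highest was 0.91, at the promoter that Hist1h2bl shares with Hist1h2ai, and the lowest -0.66, at Hist1h3b. Median peak width within 200 bp of a start was 220 and 320 bp in the 2 mice for H2A and 260 and 360 bp for H2B, beside 220 and 240 bp for H4 and 240 and 260 bp for all genes. With 1 library per mouse, a difference between animals and one between libraries cannot be told apart.

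**Figure D5:**
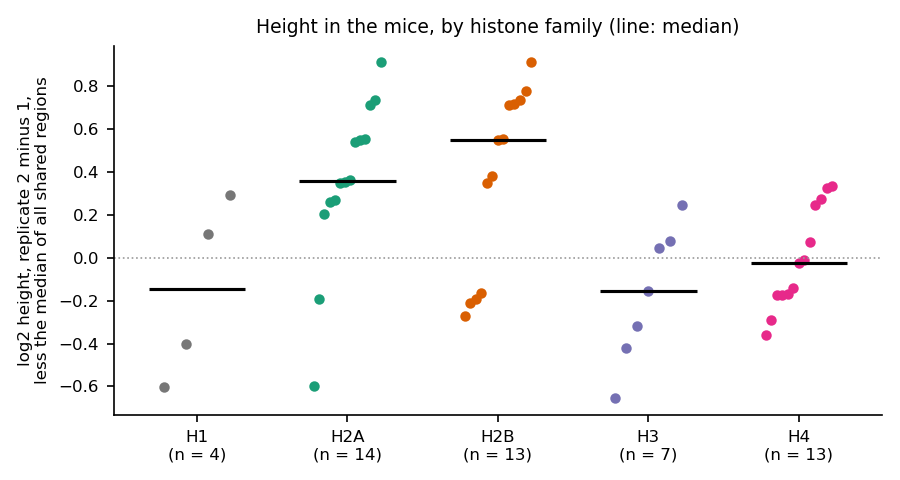
Log2 height in replicate 2 minus replicate 1, less the median over all regions shared by the mice, for histone genes whose highest peaks within 200 bp of a start overlap between the mice, by family with n below each name and the family median as a line. H2A and H2B medians lie at 0.36 and 0.55, and those of H1, H3 and H4 at or below 0. A peak shared by an H2A and an H2B gene gives a point in both families.

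All 11 listed replication-independent histone genes, which supply histones outside S phase, had a promoter peak in both mice, beside 61.1 percent of all protein-coding genes, with median 1 kb percentiles of 94.8 and 95.1, beside 87.3 and 89.5. H2afv, an H2A.Z gene, had heights of 10.3 and 7.17, and H2afj had 8.89 and 5.55. All 21 listed genes for histone gene transcription, 3′ end processing and histone chaperones were also open in both mice, at median percentiles of 93.0 and 94.3. Npat, the S-phase coactivator of histone genes, had 9.44 and 8.26, and Cpsf3, the endonuclease that cuts histone pre-mRNA, had 9.0 and 6.36.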

How the data were processed

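The 2 DNase-seq libraries form one group with 1 library per mouse. The deposited peak lists give the authors' signal for each peak (its height), the deposited footprint files give a score for each footprint, which was not used, and the authors' cut-rate files give an FDR, an adjusted p-value, for runs of positions. The aligner, the peak caller, the scaling of heights and the treatment of reads with several places were not given in the sources used here. Peaks of both mice were merged where they overlapped by at least 1 bp. A gene was called open where such a region lay within 1 kb of any GENCODE M21 transcript start on the nuclear chromosomes. Heights were ranked within each mouse's list. Single-copy 32-base words were counted over the GRCm38 reference chromosomes on both strands, as a stand-in for reads of unknown length. Counts and medians are given with no test, since the series holds one group. The analysis used Python 3.11.15 with pandas 2.3.3, numpy 2.4.6 and matplotlib 3.10.9. Promoter calls were tested on simulated peaks at 300 isolated genes with 1 start each. Clustered genes with shared or neighbouring peaks, such as the histone genes, were not simulated.

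Genes named in the text are, in each family, the 3 with the highest mean percentile within 1 kb, all H1, Hist2, Hist3 and Hist4 genes, the testis genes, those with no promoter peak in both mice, and the highest 2 of each gene list. Others were named after their values were seen: Hist1h3f, Hist1h2ab, Hist1h2bh, Hist1h2ak, Hist1h2bn, Hist1h2ae, Hist1h2bg, Hist1h2bb, Hist1h2bl, Hist1h2ai, Hist1h2ac, Hist1h4d, Hist1h4m, Hist1h4n, and those named with motif sites or stem-loops. The members and lists were chosen with earlier results of these data known. The 200 bp window, the limit to stretches of genes, the RefSeq starts, the single-copy promoters and the limit of ratios to overlapping peaks were chosen after seeing the data.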

Additional observations from a re-analysis of the deposited data

How the results depend on the processing

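Of 43 alternatives tried, 35 kept a count within 1.5 times the value reported or a median within the spread between the mice. Among these, the 68 regions between genes became 101 with the longer lists and 51 with peaks above the median height. Restricting the genes to the 11 whose 1 kb window is at least 90% single-copy left 9 open in both mice and 9 with a footprint in each mouse, by construction from fewer genes. It also gave a median of mean percentiles of 92.4 in place of 84.1 and of 1092.5 bases under the threshold in place of 767.5 (means over the mice). The longer lists gave a median percentile of 89.6, an FDR under 0.001 gave 613 bases, and the limit to stretches of genes under 100 kb apart left 7 of 68 regions between genes. With 1 mouse at a time, leave-one-out counts were 56 to 58 open genes, 13668 to 13901 open protein-coding genes, 78.5 to 87.3 for the median percentile, 780 to 848 bases, 58 genes with a footprint and 81 to 93 regions between genes. No paired analysis was possible because there is only 1 group. Depth limits every absent peak, since read numbers are unknown, and a gene in repeated DNA can lack a peak for want of unique reads. The B6CASTF1/J mice may differ from the reference sequence, and the part of this in the values was not tested.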
